A study of Mus musculus with 4 samples.

Results

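Desmosomal cadherins are the adhesion receptors that hold keratinocytes together at desmosomes. The 9 mouse genes of this family, *Dsg1a*, *Dsg1b*, *Dsg1c*, *Dsg2*, *Dsg3*, *Dsg4*, *Dsc1*, *Dsc2* and *Dsc3*, were taken by gene symbol from the 32286 features of a spatial transcriptomics dataset. The mice carried *Krox20-CreERT* and *R26-tdTomato*, received 4-hydroxytamoxifen at postnatal day (P) 2 and gave dorsal skin at P38, and every sample shared this genotype and treatment. In this line the *Krox20* promoter drives CreERT from the endogenous locus, and recombination switches on a tdTomato reporter. Each of the 4 Visium slices held 1 fresh-frozen section from each of the same 3 mice, so the slices were technical replicates. SDs and p values below therefore measure the spread between slices and not between mice, because the labels do not tie spots to a mouse. The study set 1 section aside for a distorted structure, and since spots are not tied to sections its spots may be among the values here.

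Desmosomes join the keratin networks of neighbouring epithelial cells. Desmogleins and desmocollins span the membrane and bind each other across the gap, while plakoglobin, plakophilins and desmoplakin link their tails to keratin filaments. In the epidermis the isoforms are layered. *Dsg3* and *Dsc3* are known mainly from basal and lower cells, and *Dsg1* and *Dsc1* from the differentiated upper layers. *Dsg2* and *Dsc2* are the isoforms of simple epithelia and heart and also occur in skin, and *Dsg4* is known from the hair shaft cortex, where its loss gives fragile hair. Mice carry 3 *Dsg1* copies in place of the single human *DSG1*, the antigen of pemphigus foliaceus, and DSG3 is the antigen of pemphigus vulgaris.

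All 9 genes lie in 1 cluster on chromosome 18, chr18:19960930-20604521 in build GRCm38, a span of 643.6 kb. The 6 desmogleins are on the plus strand, from *Dsg1c* (20247340 to 20285031) through *Dsg1a* (20310811 to 20343350), *Dsg1b* (20376729 to 20410196), *Dsg4* (20436175 to 20471821) and *Dsg3* (20510274 to 20547459) to *Dsg2* (20558074 to 20604521). The 3 desmocollins are on the minus strand, *Dsc3* (19960930 to 20002351), *Dsc2* (20030633 to 20059554) and *Dsc1* (20084184 to 20114871). Reads of this assay come from the 3′ end of transcripts. The last 500 bases of the annotated coding transcripts shared no 90-base window between members, so the *Dsg1* copies could be counted apart at these ends. The RefSeq 3′ end lay 1987 bases beyond the GENCODE end for *Dsg1b* and 713 bases beyond it for *Dsc1*, while for *Dsg3* the RefSeq end minus the GENCODE end was −6149 bases. Which of these ends the counting annotation held was not given in the sources used here, so counts of these 3 genes may be undercounts.

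After a minimum of 250 genes per spot, 6411 of 6420 spots remained, with 19393026 to 26910422 unique molecular identifiers (UMIs) per slice and a median of 11662 to 14627 per spot. Spots were clustered without the 9 members and 16 related genes and were named by marker lists. A Visium spot is wider than a follicle layer and holds several cells, so each region is a zone of spots and not a cell type. The regions used were the interfollicular epidermis (IFE) region (410 spots, led by *Lce1m*, *Lor* and *Krt77*), the upper hair follicle (HF) region (311 spots, led by *Atp12a*, *Plet1* and *Cst6*), the outer root sheath region (712 spots, led by *Spink12*, *Car6* and *Trpv6*), the inner root sheath region (578 spots, led by *Krt32*, *Dusp2* and *Krt25*), the matrix region (581 spots, led by *Mt2*, with *Top2a* and *Cdk1*) and the hair shaft region (257 spots, led by *Sprr1b*, *Capn12* and *Krtap13-1*). The names of the sheath regions rest on lists that neighbouring regions shared. Summed outer root sheath markers ranged from 16982 to 20114 CPM in the outer root sheath region and from 14787 to 18177 in the upper HF region. Inner root sheath markers (9 of 10 found) ranged from 65262 to 70567 in the inner root sheath region and from 60630 to 70711 in the hair shaft region, and 2 and 1 markers of these lists were among the top 20 genes of their regions. A muscle region (735 spots, led by *Myl1* and *Ttn*) served as background. A further 663 spots led by keratin-associated protein genes such as *Krtap4-9* held no hair shaft marker among their top 20 genes and are called the *Krtap4-9*-rich region. Another 502 spots, led by *Gabrp* and *Chrna4*, scored highest on the outer root sheath list. They held 6 of its markers at a log2 fold of at least 1, as did the outer root sheath region, but none among their top 20 genes. These *Gabrp*-led spots were not named and entered no comparison between the named regions. One cluster of 275 spots, led by *Atp2c2*, lay almost wholly (97.8%) in slice 1 and entered no test or ratio between the named regions. Its spots remained in the grid steps and its slice 1 sum in the likeness correlations given further on. In such spots fewer cells of a type and less RNA per cell cannot be told apart.

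*Dsg1a*, *Dsg3*, *Dsc3* and *Dsc2* carried most of the family's signal, and they differed in where they were highest. Over all kept spots *Dsc3* gave 28795 UMIs, *Dsg1a* 28694, *Dsg3* 7868 and *Dsc2* 6299. *Dsg2* gave 2306, *Dsc1* 1255, *Dsg1b* 704, *Dsg4* 65 and *Dsg1c* 25 UMIs. These totals are UMI counts at the 3′ end and do not rank the genes by transcript number.

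*Dsg1a* was highest in the IFE region and lowest among the 6 epithelial regions in the outer root sheath region. In the IFE region its level was 761, 866, 789 and 864 CPM in slices 1 to 4 (mean 819.8 ± 53.3, SD, n = 4), where CPM are the UMIs of a gene over all UMIs of that region and slice, scaled to a common total. The inner root sheath region came next with 559, 570.3, 523 and 502 (mean 539 ± 31.6), and the outer root sheath region held 230, 249, 245 and 241 (mean 241 ± 7.87). The slices of these 3 regions did not overlap. The upper HF (309 ± 33.1), matrix (299 ± 5.35) and hair shaft (294 ± 11.7) regions overlapped each other, and the muscle region was at 207 ± 7.93. Against the IFE, *Dsg1a* was lower in the outer root sheath region (log2 difference −1.83 ± 0.0978, SE; edgeR quasi-likelihood test with Benjamini-Hochberg adjustment, adjusted p = 6.36e-25), in the matrix (−1.45), the upper HF (−1.39), the hair shaft (−1.18) and, least, the inner root sheath region (−0.54, adjusted p = 2.17e-06).

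*Dsg3* was highest in the upper HF and outer root sheath regions. Its level in the upper HF region was 215, 215, 259.5 and 294 CPM (mean 246 ± 38.4, SD, n = 4) and in the outer root sheath region 203, 214, 212 and 234 (mean 216 ± 13.1). In the IFE region it was 80.1, 74.9, 72.4 and 70.7 (mean 74.5 ± 4.10). Every slice of the first 2 regions lay above every slice of the IFE. The edgeR difference from the IFE was 1.73 ± 0.124 in the upper HF (adjusted p = 1.46e-18) and 1.45 ± 0.118 in the outer root sheath region (adjusted p = 1.57e-16). *Dsg3* was lower than in the IFE in the inner root sheath region (34.7 ± 3.22 CPM, log2 −1.05, adjusted p = 9.10e-10) and in the matrix region (25.4 ± 3.22, log2 −1.56, adjusted p = 5.80e-16). The hair shaft region (69.1 ± 6.49) gave a log2 difference of 0.15 from the IFE with an adjusted p of 0.387. Against the muscle region (33.9 ± 6.70) *Dsg3* gave a log2 difference of 0.05 in the inner root sheath region (edgeR adjusted p = 0.756) and was lower in the matrix by 0.45 on the log2 scale (adjusted p = 0.00184). The former was 0.54 (edgeR adjusted p = 0.000846) when regions were set by marker scores without clusters. The matrix call was lost with integrated slices (−0.08, adjusted p = 0.775), 20 clusters (−0.41, 0.0753) and spots thinned to equal depth (−0.41, 0.123). It was also lost within strips 2 (−0.27, 0.302) and 3 (−0.23, 0.295) of the slices. With each spot thinned to 5500 UMIs, 68.7% ± 1.98 of outer root sheath spots held a *Dsg3* UMI, against 17.4% ± 3.47 in the inner root sheath, 12.7% ± 2.24 in the matrix and 15.2% ± 3.74 in the muscle region. Before thinning these shares were 84.8%, 43.0%, 46.9% and 36.5%.

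**Figure D1:**
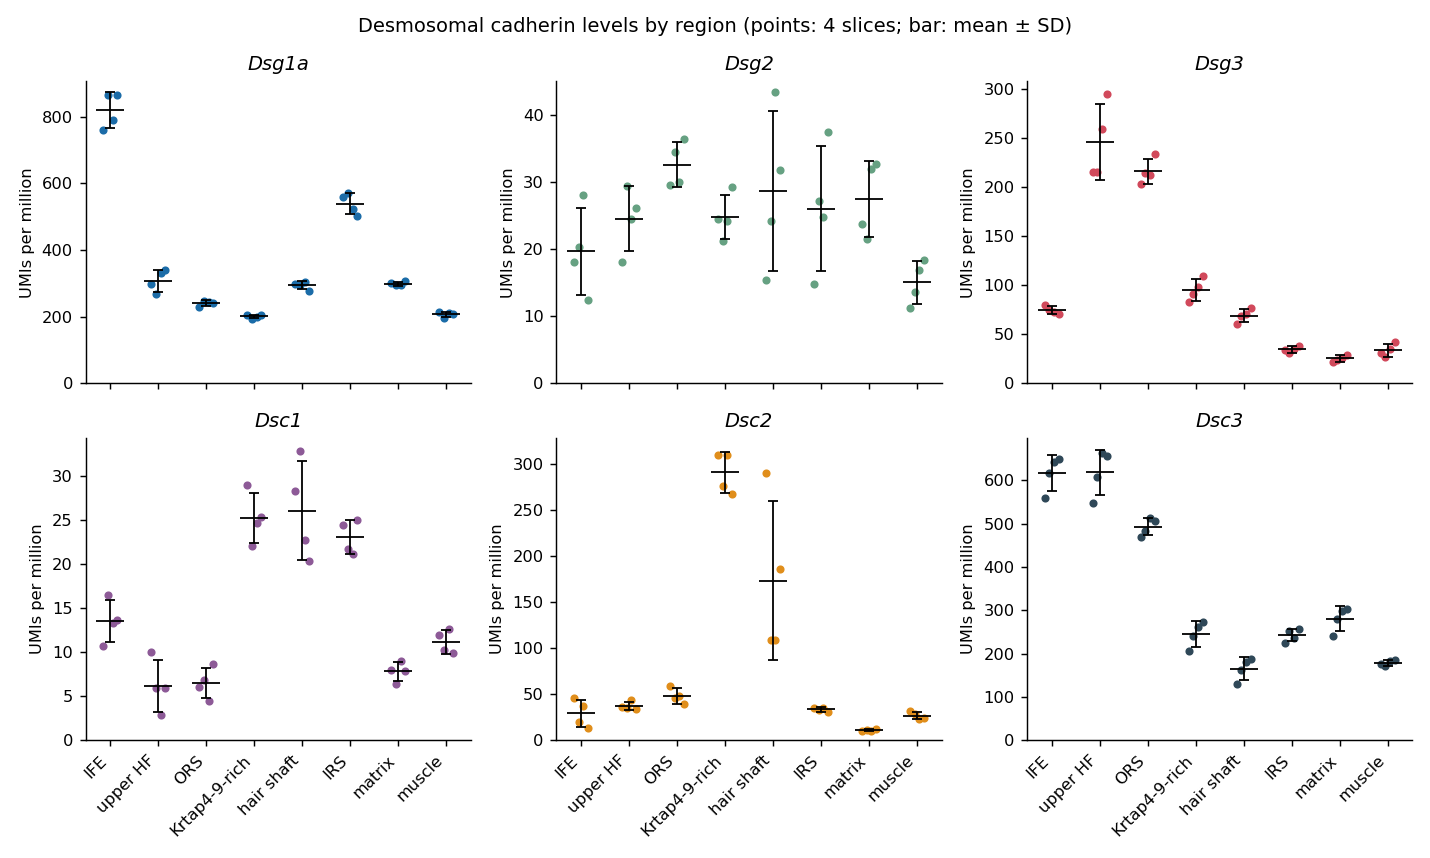
Levels of *Dsg1a*, *Dsg2*, *Dsg3*, *Dsc1*, *Dsc2* and *Dsc3* in CPM, for the 6 epithelial regions, the *Krtap4-9*-rich region and the muscle region (points, 4 slices; bar, mean ± SD; each panel has its own axis from 0). *Dsg1a* peaks in the IFE at 819.8, *Dsg3* in the upper HF at 246 and *Dsc2* in the *Krtap4-9*-rich region at 290.5.

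The remaining desmogleins were low. Over these regions *Dsg2* had means of 15.1 (muscle region) to 32.6 CPM (outer root sheath region), and neighbours in this order overlapped in their slices. It was higher than in the IFE (18.2, 20.3, 28.1 and 12.4, mean 19.7 ± 6.47) in the outer root sheath region (29.6, 34.5, 30.05 and 36.5, edgeR log2 0.70 ± 0.242, adjusted p = 0.0235) and in the hair shaft region (15.4, 24.2, 43.5 and 31.8, log2 0.81 ± 0.276, adjusted p = 0.0124). Only in the hair shaft did its slices overlap those of the IFE. Both calls were lost when 1 slice was left out, the first without slice 2 (log2 0.70, adjusted p = 0.105) or slice 4 (0.50, 0.167) and the second without slice 3 (0.73, 0.0652) or slice 4 (0.69, 0.0507). Both were also lost with thinned spots (edgeR log2 0.55, adjusted p = 0.154, and 0.75, 0.0709) and within strips 2 and 3. The hair shaft call was further lost with integrated slices (0.40, 0.428) and with libraries scaled by their totals alone (0.53, 0.143). *Dsg1b* was highest in the inner root sheath region (14.9, 11.8, 13.5 and 12.9 CPM, mean 13.3 ± 1.27) and was at 9.19 ± 2.09 in the IFE. The slices of both regions overlapped at 1 point, since the highest IFE slice and the lowest inner root sheath slice were both at 11.8. The log2 difference of 0.65 ± 0.283 missed the threshold in edgeR (adjusted p = 0.0531) and passed it with the slice as a block (adjusted p = 0.0470).

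*Dsg4* and *Dsg1c* were near the limit of detection. *Dsg4* had 2 UMIs in the hair shaft region, 10 in the inner root sheath region and 10 in the muscle region, and 1.01% of all spots held one. Its level was 0.50 CPM in the hair shaft region (2 of 4019854 UMIs) and 0.89 in the muscle region (10 of 11215268), so a higher level in the hair shaft was not detectable at this depth. *Dsg1c* had at most 4 UMIs in any region and none in the upper HF or outer root sheath region, where a count of 0 allows up to 1.11 and 0.352 CPM (3 UMIs, counting error only). Neither gene passed the filter on low counts, and without the filter edgeR called neither in any of the 12 comparisons. The lowest unadjusted p was 0.0126 (*Dsg1c*, outer root sheath against IFE, adjusted p = 0.0698).

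Among the desmocollins, *Dsc3* followed the IFE and upper follicle and *Dsc2* the keratinising part of the follicle. *Dsc3* was at 559, 617, 642 and 649 CPM in the IFE (mean 617 ± 41.1, SD, n = 4) and at 548, 606, 662 and 655 in the upper HF region (mean 618 ± 52.6). The slices of these 2 regions overlapped throughout, with a log2 difference of 0.02 ± 0.0866 (SE; edgeR adjusted p = 0.917). *Dsc3* was then lower in the outer root sheath (493 ± 20.3, log2 −0.39), matrix (280.4 ± 28.5, −1.13), inner root sheath (242 ± 14.0, −1.28) and hair shaft regions (165 ± 26.4, −1.63). The largest of the 4 adjusted p values was 0.000183, for the outer root sheath.

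*Dsc2* was at its highest in the *Krtap4-9*-rich region, with 309.6, 276, 309.5 and 267 CPM (mean 290.5 ± 22.3). The hair shaft region held 289.7, 108, 109 and 186 (mean 173 ± 85.8), so that slice 1 stood far above slices 2 and 3 and overlapped the *Krtap4-9*-rich region. The IFE held 45.8, 20.3, 36.9 and 13.7 (mean 29.2 ± 14.8), and the matrix 10.5, 10.98, 10.1 and 12.04 (mean 10.9 ± 0.832). All hair shaft slices lay above all IFE slices, and all matrix slices lay below them. The edgeR difference between hair shaft and IFE was 2.80 ± 0.250 (adjusted p = 3.16e-15), and that between hair shaft and matrix was 4.31 ± 0.232 (adjusted p = 2.55e-25), a 19.8-fold difference. *Dsc2* was lower in the matrix than in the IFE (−1.503 ± 0.321, adjusted p = 4.56e-05). In the upper HF (37.0 ± 4.30), inner root sheath (33.5 ± 2.43) and outer root sheath regions (47.9 ± 8.44) the difference from the IFE did not pass the test. For both sheath regions this depended on how spots were assigned. The inner root sheath log2 difference was 0.17 (edgeR adjusted p = 0.657) and 1.49 (adjusted p = 4.90e-08) when regions were set by marker scores without clusters. The outer root sheath difference was 0.54 (adjusted p = 0.151), and it passed without clusters (1.41, adjusted p = 2.99e-07), with 12 clusters (1.06, 2.89e-06), with integrated slices (0.85, 0.0114), with thinned spots (0.75, 0.0395), without the filter on low counts (0.58, 0.00431), with the slice as a block (0.61, 0.0204) and without slice 1 (0.86, 0.00442).

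*Dsc1*, the desmocollin of upper epidermal layers, was low in every region but not even. It held 28.3, 32.9, 22.8 and 20.4 CPM in the hair shaft region (mean 26.1 ± 5.62), 24.5, 21.7, 21.1 and 25.0 in the inner root sheath region (mean 23.1 ± 1.94) and 25.3 ± 2.84 in the *Krtap4-9*-rich region. The IFE held 10.8, 16.5, 13.3 and 13.7 (mean 13.6 ± 2.35). Both sheath and shaft values lay above all IFE slices. edgeR gave 1.31 ± 0.263 for hair shaft against IFE (adjusted p = 2.81e-05), 0.87 ± 0.239 for inner root sheath against IFE (adjusted p = 0.00175) and 2.04 ± 0.225 for hair shaft against matrix (adjusted p = 5.45e-12). *Dsc1* was lower than in the IFE in the upper HF (6.20 ± 2.94), outer root sheath (6.52 ± 1.72) and matrix regions (7.82 ± 1.06), by 1.13, 1.06 and 0.73 on the log2 scale (edgeR adjusted p = 0.0425, 0.00571 and 0.0176). With 12 clusters in place of 16 the outer root sheath (0.0065) and matrix differences (0.18) turned. These smaller calls also depended on single slices. The inner root sheath call was lost without slice 1 (0.65, adjusted p = 0.0567), the upper HF call without slice 2 (−1.004, 0.183), 3 (−0.90, 0.183) or 4 (−1.13, 0.113), and the outer root sheath (−0.97, 0.0524) and matrix calls (−0.51, 0.174) without slice 2.

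Counted together, 3 to 5 of the tested members were called in each comparison with the IFE. edgeR fitted 13177 genes, among them 7 members. Against the IFE, 3 of 7 were called in the upper HF region (19.1% of all genes tested were called), 5 in the outer root sheath region (27.1%), 4 in the inner root sheath region (47.9%), 5 in the matrix (62.7%) and 5 in the hair shaft region (44.4%). In the comparison of hair shaft with matrix 5 of 7 were called (53.7%). The direction was mixed except in the matrix, where all 5 calls were lower than in the IFE and the median log2 difference of the 7 members was −1.13, against 0.05 for all genes. In hair shaft against matrix 4 were higher (*Dsc2*, *Dsc1*, *Dsg3* and *Dsg1a*) and *Dsc3* was lower, with a median of 0.65 against −0.19. The *Dsg1a* value there (0.26 ± 0.0969, adjusted p = 0.0197) rested on the scaling and on single slices. It was −0.02 when libraries were scaled by their totals alone, and 0.20 (adjusted p = 0.112) without slice 1 and 0.26 (adjusted p = 0.0723) without slice 2.

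The muscle region held desmosomal cadherin UMIs as well. Against it, 3 of 7 members were higher in the IFE (48.2% of genes called), and these were *Dsg1a* (log2 1.93), *Dsc3* (1.73) and *Dsg3* (1.11). Called members numbered 5 in the upper HF (45.2%), 6 in the outer root sheath (48.6%), 5 in the inner root sheath (48.2%), 6 in the matrix (57.1%) and 5 in the hair shaft region (50.2%). In the outer root sheath region *Dsg3* was higher than in muscle by 2.56 ± 0.112 while *Dsg1a* differed by 0.09 ± 0.0960 (edgeR adjusted p = 0.448). That *Dsg1a* difference was 0.39 with integrated slices (edgeR adjusted p = 0.00277) and 0.22 when libraries were scaled by their totals alone (0.0294). The muscle region retained 25.3% of the IFE level of *Dsg1a*, 28.9% of *Dsc3*, 45.4% of *Dsg3*, 82.5% of *Dsc1* and 91.6% of *Dsc2*, but only 0.800% to 6.46% (median 1.34%) of that of the 10 IFE markers. It also held 39930 to 44210 CPM of muscle markers, 25966 to 28528 of inner root sheath markers (65262 to 70567 in the inner root sheath region) and 613 to 659 of matrix markers (1434 to 1565 in the matrix region), with no gene found of these lists at 0. The part of follicle RNA in the muscle values was not tested.

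Dermal RNA also differed between the compared regions. The summed level of 10 dermal fibroblast markers ranged from 26689 to 31398 CPM over the slices of the IFE region, 11363 to 17408 in the upper HF, 14661 to 28087 in the outer root sheath, 1368 to 2100 in the inner root sheath, 2222 to 2770 in the matrix and 1111 to 1477 in the hair shaft region, with none of the 10 genes at 0. Its part in the levels above was not tested. Ratios between 2 members within the same spots, given next, do not use the total UMIs of a spot.

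The balance of desmogleins switched from the IFE to the upper HF and outer root sheath regions, and back in deeper regions, the muscle region included. *Dsg1* (the sum of *Dsg1a*, *Dsg1b* and *Dsg1c*) made up 88.5, 90.2, 88.9 and 91.3% of desmoglein UMIs in the IFE region (mean 89.7% ± 1.29), 53.9% ± 2.14 in the upper HF, 50.2% ± 1.41 in the outer root sheath, 89.9% ± 2.00 in the inner root sheath, 85.2% ± 1.95 in the matrix and 75.6% ± 3.24 in the hair shaft region. The *Dsg3* share went from 8.09% ± 0.806 in the IFE to 43.1% ± 1.12 in the outer root sheath region (42.8, 42.2, 42.7 and 44.7%). In the inner root sheath it was 5.67% ± 0.724. In levels, both genes differed between the IFE and outer root sheath regions. *Dsg1* was at 830 ± 54.3 and 251 ± 7.91 CPM, and *Dsg3* at 74.5 ± 4.10 and 216 ± 13.1. The slices of the outer root sheath lay far from those of the IFE and inner root sheath on both shares. The muscle region held shares near those of the matrix, 81.1% ± 2.60 for *Dsg1* and 12.8% ± 1.89 for *Dsg3*. The return to a high *Dsg1* share was thus not particular to the deep follicle regions. The log2 ratio of *Dsg1* to *Dsg3* was 3.46 ± 0.152 in the IFE, 0.36 ± 0.112 in the upper HF, 0.22 ± 0.0774 in the outer root sheath, 3.98 ± 0.212 in the inner root sheath, 3.58 ± 0.176 in the matrix and 2.12 ± 0.173 in the hair shaft region.

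These ratios were compared between regions with an exact permutation test over slices, two-sided, for 7 ratios in 6 comparisons. With 4 slices against 4 the smallest p it can give is 0.0286, which after Benjamini-Hochberg adjustment over the 42 tests became 0.0480. *Dsg1*/*Dsg3* reached that value in 5 of its 6 comparisons: lower than the IFE in the upper HF (by 3.09 on the log2 scale), outer root sheath (3.24) and hair shaft regions (1.34), higher in the inner root sheath (0.52), and lower in the hair shaft than in the matrix (1.46). The inner root sheath difference was −0.029 when spots took their region from marker scores without clusters. Matrix and IFE differed by 0.12 (exact permutation p = 0.371, adjusted p = 0.459). In all, 25 of 42 ratio comparisons reached the smallest p, 19 of 30 without *Dsg4* and 6 of 12 with it. The share of other gene pairs that reach it between these regions was not counted, so these counts are not a result about the members. The *Dsg4* ratios were set mainly by the 1 UMI added to each sum. The adjusted value of 0.0480 depends on how many of the 42 reached the smallest p, these 6 included. With fewer at that p, no comparison would be under 0.05, so the calls pass or fail together. None of the 42 passed when slices were paired as a block, where the smallest p is 0.125, or with 3 slices, where it is 0.1. Such designs cannot pass the threshold and say nothing about stability.

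**Figure D2:**
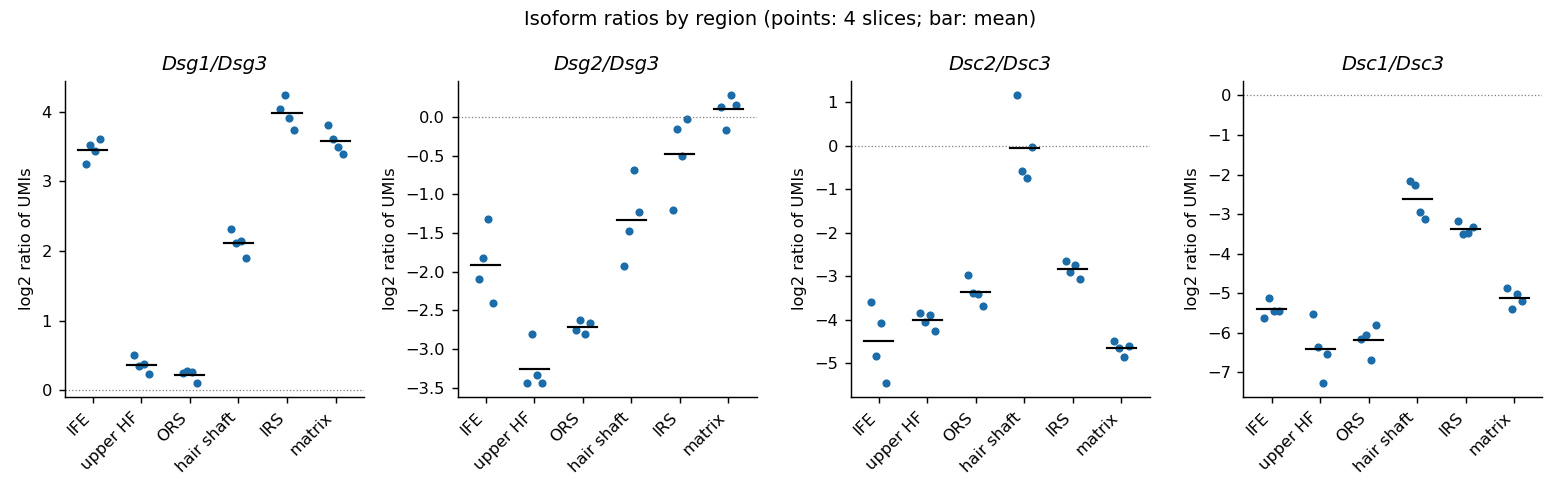
Log2 ratios of summed UMIs between isoforms in 6 regions (points, 4 slices; bar, mean; dotted line, equal UMIs). *Dsg1*/*Dsg3* goes from 3.46 in the IFE to 0.22 in the outer root sheath and returns to 3.98 in the inner root sheath, and *Dsc2*/*Dsc3* reaches −0.04 in the hair shaft.

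*Dsg2* gained on *Dsg3* where *Dsg3* was lowest. The log2 ratio of *Dsg2* to *Dsg3* was −2.10, −1.82, −1.32 and −2.40 in the IFE (mean −1.91 ± 0.458), −3.25 ± 0.299 in the upper HF and −2.71 ± 0.0813 in the outer root sheath. In the matrix it was 0.13, −0.17, 0.28 and 0.16 (mean 0.10 ± 0.190), about equal UMIs of both genes. The matrix slices lay above all slices of the other 5 regions except that the inner root sheath (−0.47 ± 0.521) reached −0.16 and −0.03 in slices 2 and 4, above the lowest matrix slice. Differences from the IFE had an adjusted p of 0.0480 (exact permutation test) in the upper HF, outer root sheath, inner root sheath and matrix regions, and of 0.232 in the hair shaft region.

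Among desmocollins, *Dsc3* dominated until the keratinising zone, where *Dsc2* came level. *Dsc3* made up 93.5% ± 2.21 of desmocollin UMIs in the IFE, 93.4% ± 0.877 in the upper HF, 90.03% ± 1.58 in the outer root sheath, 93.7% ± 0.592 in the matrix and 81.0% ± 1.502 in the inner root sheath region. In the hair shaft region its share was 28.9, 53.5, 57.9 and 47.7% (mean 47.0% ± 12.8), against 64.7, 35.7, 34.8 and 47.1% for *Dsc2* (mean 45.6% ± 14.0). Slice 1 was thus the only slice in which *Dsc2* exceeded *Dsc3* there. In the *Krtap4-9*-rich region *Dsc2* held 51.9% ± 3.93 and *Dsc3* 43.6% ± 4.32, with *Dsc2* ahead in slices 1, 2 and 3. The log2 ratio of *Dsc2* to *Dsc3* was −4.49 ± 0.822 in the IFE, −4.65 ± 0.152 in the matrix, −2.84 ± 0.182 in the inner root sheath and −0.04 ± 0.857 in the hair shaft region. The hair shaft differed by 4.44 from the IFE and by 4.60 from the matrix, and the inner root sheath by 1.64 from the IFE (exact permutation p = 0.0286, adjusted p = 0.0480 for each). The muscle region, however, held shares close to those of the inner root sheath, 12.4% ± 1.89 for *Dsc2* (11.2% ± 1.22 in the inner root sheath) and 82.5% ± 2.01 for *Dsc3*, and the *Dsc2* level differed between them by 0.33 on the log2 scale (edgeR adjusted p = 0.247). This level difference depended on how spots were assigned, and was 1.56 (edgeR adjusted p = 1.17e-10) with marker scores in place of clusters. The ratio of *Dsc1* to *Dsc3* was −5.41 ± 0.206 in the IFE, −3.37 ± 0.149 in the inner root sheath and −2.63 ± 0.481 in the hair shaft region, higher in both by the same test.

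Distance from the epidermis gave the same genes in a finer order. Each spot was placed by the number of grid steps to the nearest IFE spot, from 0 (the IFE region itself) to 8, where muscle (44.1% of spots) and matrix (29.9%) prevailed. Step 2 held mainly outer root sheath (46.8%) and upper HF spots (19.5%), step 4 *Krtap4-9*-rich spots (37.2%), and step 6 inner root sheath (30.5%), matrix (19.7%) and hair shaft spots (14.98%). The *Atp2c2*-led cluster of slice 1 made up 15.6% of spots at step 3 and 11.8% at step 4, and held 125 CPM of *Dsc2*. *Dsg3* went from 74.5 ± 4.10 CPM at step 0 to 214 ± 28.6 at step 2 (183, 205, 216 and 251) and was at 32.4 ± 5.76 at step 7. All 4 slices had their highest value at step 2. *Dsg1a* went down from 819.8 ± 53.3 at step 0 to 231 ± 13.5 at step 4, and had a second maximum of 380.5 ± 12.1 at step 6 (384, 383, 363 and 392). These changes over steps are descriptions of levels, and neighbouring steps share follicles.

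**Figure D3:**
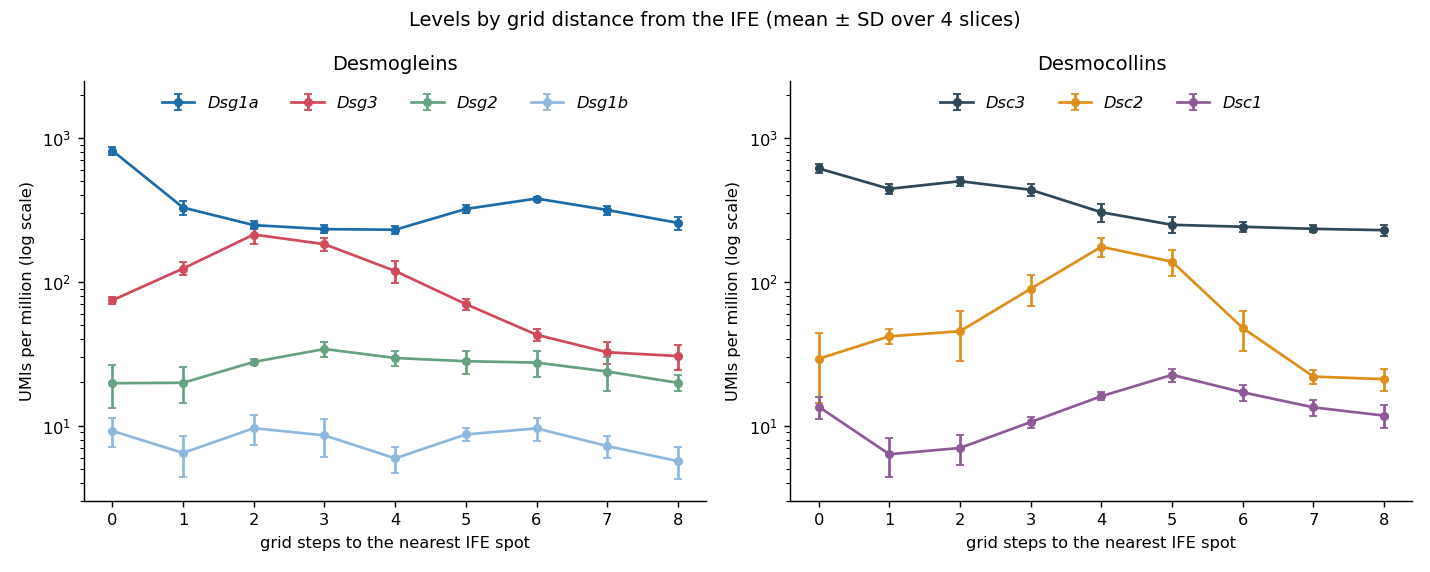
Levels in CPM (log scale) by grid steps to the nearest IFE spot, for desmogleins and desmocollins (mean ± SD over 4 slices). *Dsg3* peaks at step 2 (214), *Dsc2* at step 4 (176) and *Dsg1a* shows a second maximum at step 6 (380.5).

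*Dsc2* peaked at step 4 in all 4 slices (208, 177, 177 and 141 CPM, mean 176 ± 27.5), from 29.2 ± 14.8 at step 0, and was back at 21.9 ± 2.44 at step 7. *Dsc1* was lowest at steps 1 (6.32 ± 1.91) and 2 (6.99 ± 1.65) and highest at step 5 (22.6 ± 2.35) in 3 of 4 slices, with slice 2 highest at step 6 by a margin of 0.06 CPM (19.42 against 19.36). *Dsc3* was highest at step 0 (617 ± 41.1) and was at 229 ± 19.9 at step 8. *Dsg2* was highest at step 3 in all 4 slices (34.1 ± 4.09). The *Dsg4* level stayed between 0.337 and 1.13 CPM over these steps, and *Dsg1c* reached at most 0.945.

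As shares, *Dsg1* went from 89.7% ± 1.29 of desmoglein UMIs at step 0 to 51.7% ± 2.16 at step 2 and came back to 84.7% ± 1.66 at step 6, while *Dsg3* went from 8.09% ± 0.806 to 42.6% ± 2.45 and 9.30% ± 0.801. Among desmocollins, *Dsc2* went from 4.47% ± 2.41 at step 0 to 35.5% ± 6.58 at step 4 and 8.15% ± 0.833 at step 7. The *Dsc2* share was highest at step 4 in 3 slices and at step 5 in slice 2 (37.0% against 33.2% at step 4), and steps 4 and 5 (33.7% ± 7.05) overlapped.

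**Figure D4:**
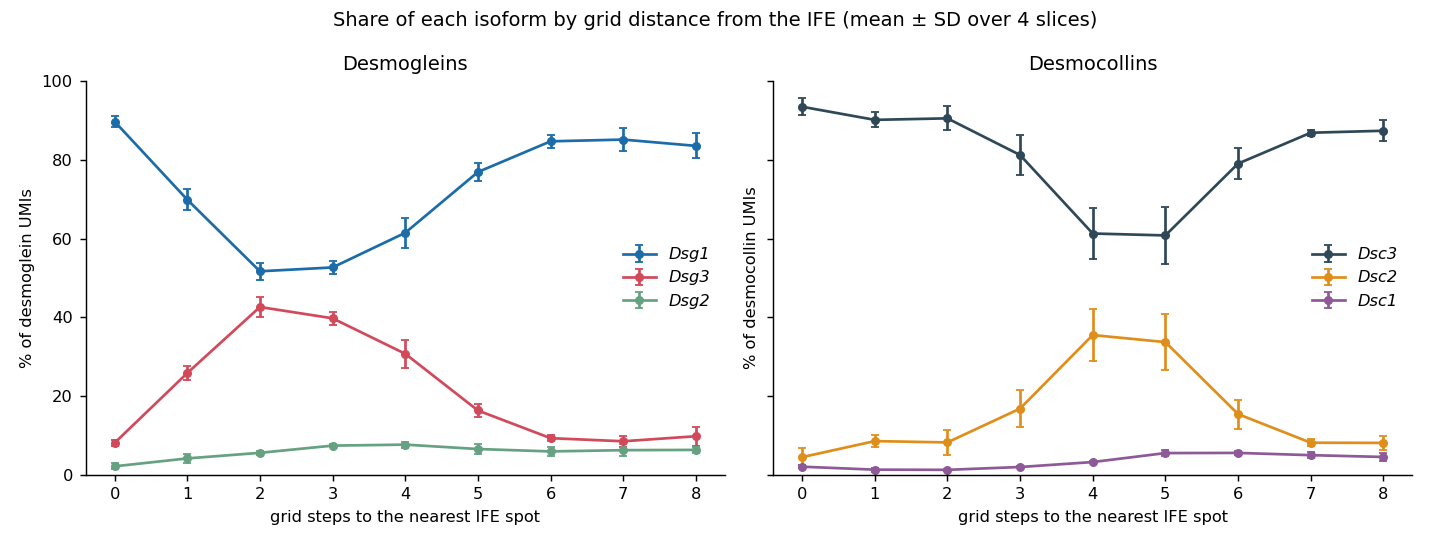
Share of each isoform among desmoglein UMIs and among desmocollin UMIs, in percent, by grid steps to the nearest IFE spot (mean ± SD over 4 slices). *Dsg3* reaches 42.6% at step 2, and *Dsc2* reaches 35.5% at step 4.

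The mean step, weighted by CPM over steps 0 to 8, gave the order *Dsg3* (2.98 ± 0.0714), *Dsc3* (3.11 ± 0.0379), *Dsg1* (3.40 ± 0.0990), *Dsc2* (3.95 ± 0.177), *Dsg2* (4.02 ± 0.295), *Dsc1* (4.39 ± 0.147) and *Dsg4* (4.49 ± 0.890). Of 7 pairs compared within the families, 6 did not overlap between slices (exact permutation p = 0.0286, adjusted p = 0.0333), and *Dsg1* against *Dsg4* did not pass (p = 0.143). The share of all gene pairs without overlap was not counted, so this number is not a result about the members. Of the 6, *Dsg3* against *Dsg4* rested on 2 to 12 *Dsg4* UMIs per step. *Dsc2* and *Dsc1* had a larger mean step than *Dsc3* by 0.84 and 1.28, and *Dsg2* a larger one than *Dsg3* by 1.04. A gene even over steps 0 to 8 would have the middle step as its mean, so a mean near it does not by itself mark a depth. *Dsg2* lay near it, with 19.7 ± 6.47 CPM at step 0, 34.1 ± 4.09 at step 3 and 19.9 ± 2.52 at step 8. The order of *Dsg1* and *Dsg3* depended on how deep the mean ran: *Dsg1* lay deeper by 0.42 steps over steps 0 to 8 and shallower by 0.58 over steps 0 to 5, which leaves out its second maximum. *Dsc1* lay deeper than *Dsc2* by 0.44 over steps 0 to 8 and shallower by 0.45 over steps 0 to 5. With slices paired as a block none of the 7 passed, since the smallest p is then 0.125.

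Within the IFE region, spots were put into 3 equal groups in each slice by the ratio of differentiation keratins and loricrin (*Lor*, *Krt10*, *Krt1*) to basal keratins (*Krt14*, *Krt5*, *Krt15*). *Dsg1a* held 627, 723, 613 and 686 CPM in the most basal group (mean 662 ± 51.4) and 903, 969.8, 860.0 and 948 in the most differentiated group (mean 920.1 ± 48.9). The 2 groups did not overlap, but the difference did not pass the correction (exact permutation p = 0.0286, adjusted p = 0.157). The share of all genes without overlap along this gradient was not counted, so this is not particular to *Dsg1a*. *Dsc3* went from 554 ± 36.3 to 673 ± 96.2 and *Dsg3* from 82.4 ± 17.3 to 73.7 ± 11.7, with overlapping slices. The log2 ratio of *Dsg1* to *Dsg3* was 0.63 higher in the differentiated group and higher in 4 of 4 slices (exact permutation p = 0.0286, adjusted p = 0.157 over 11 tests), so it did not pass the correction. *Dsc1* was at 12.1 ± 9.27 and 15.2 ± 2.33, resting on 12 and 19 UMIs.

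A second grouping put the spots of the matrix, inner root sheath and hair shaft regions in order by hair shaft against matrix markers. *Dsc2* went from 9.54 ± 1.54 CPM in the lowest group over 24.1 ± 3.45 to 113 ± 42.2 in the highest (166, 78.0, 79.97 and 126), and *Dsc1* from 7.48 ± 0.722 over 18.6 ± 1.67 to 25.3 ± 1.77. *Dsg3* was at 25.5 ± 5.38 and 29.6 ± 2.53 in the lowest and middle groups and at 55.4 ± 3.95 in the highest. *Dsg1a* was highest in the middle group (491 ± 9.37), between 289 ± 15.7 and 394 ± 25.6, and *Dsc3* went down from 276 ± 28.6 to 186 ± 19.4. For *Dsc2*, *Dsc1*, *Dsg3*, *Dsg1a* and *Dsc3* the highest and lowest groups did not overlap (exact permutation test, adjusted p = 0.0571 for each). The share of all genes without overlap along this gradient was not counted, so this is not particular to the members. Between the hair shaft and matrix regions 53.7% of all genes tested were called. The log2 ratio of *Dsc2* to *Dsc3* was 4.03 higher in the highest group in 4 of 4 slices (exact permutation p = 0.0286, adjusted p = 0.0571 over 12 tests), just short of the threshold. *Dsg4* had 3, 5 and 8 UMIs in the 3 groups (log2 difference 0.56, adjusted p = 0.171, same test and n = 4).

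**Figure D5:**
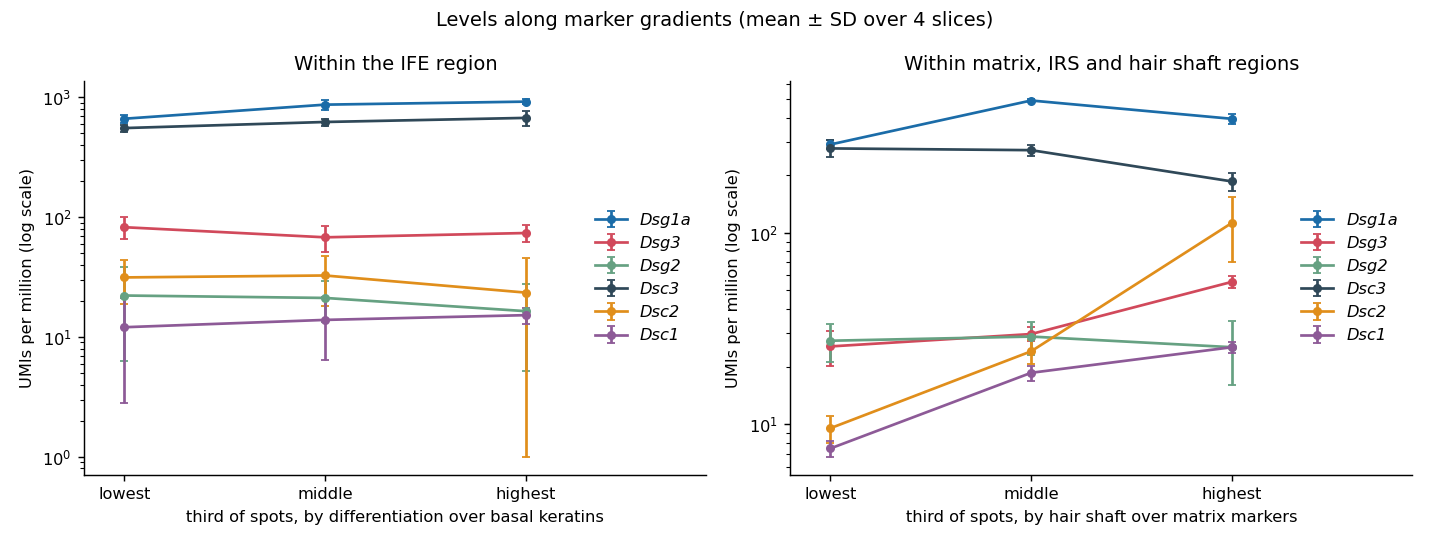
Levels in CPM (log scale) in the lowest, middle and highest groups of spots along the keratin gradient within the IFE and along the shaft gradient of the matrix, inner root sheath and hair shaft regions (mean ± SD over 4 slices). *Dsg1a* goes from 662 to 920.1 along the first, and *Dsc2* from 9.54 to 113 along the second. Neither difference passed the threshold (exact permutation test, adjusted p = 0.157 and 0.0571).

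The partners of the cadherins were described from a list of 16 related genes. All 8 plaque genes were called between matrix and IFE (62.7% of all genes tested were called), 6 lower in the matrix and 2 (*Pkp2* and *Pkp4*) higher. All 8 were also called between hair shaft and matrix (53.7%), 7 higher in the hair shaft and *Pkp4* lower. Desmoplakin (*Dsp*), which anchors keratin, was at 2353 ± 139 CPM in the IFE, 964 ± 29.5 in the matrix (edgeR log2 −1.28, adjusted p = 1.25e-13) and 1464 ± 228 in the hair shaft region. Plakoglobin (*Jup*) was at 893 ± 58.9 in the IFE and 479.6 ± 49.0 in the matrix (−0.89), and plakophilin 1 (*Pkp1*) at 431 ± 20.7 and 171 ± 19.2 (−1.33). Plakophilin 3 (*Pkp3*) and envoplakin (*Evpl*) were higher in the hair shaft than in the IFE (986 ± 136 against 556 ± 34.6, log2 1.10, and 422 ± 35.5 against 250 ± 16.8, log2 1.05). Periplakin (*Ppl*) was lower than in the IFE in the upper HF (log2 −1.56), outer root sheath (−1.27), inner root sheath (−0.69) and matrix (−1.87). *Pkp2* was at 25.1 ± 3.21 in the inner root sheath and 4.57 ± 2.46 in the IFE (log2 2.36 ± 0.269, adjusted p = 2.84e-11).

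Corneodesmosin (*Cdsn*), a glycoprotein of cornified desmosomes, was at 1116 ± 90.2 CPM in the IFE, 84.1 ± 23.7 in the matrix (log2 −3.74) and 1672 ± 109 in the *Krtap4-9*-rich region, where *Dsc2* was also highest. *Perp* was lower than in the IFE in the upper HF (−0.46), outer root sheath (−0.43) and matrix regions (−0.41). Of the classical cadherins, *Cdh1* (E-cadherin) was higher in the upper HF (0.43) and lower in the outer root sheath (−0.33, edgeR adjusted p = 0.0122), inner root sheath (−0.45, adjusted p = 0.000259) and matrix (−1.34) than in the IFE. *Cdh3* (P-cadherin) was higher in the outer root sheath (0.64), inner root sheath (0.57), matrix (0.57) and hair shaft (0.64). The 4 regulators, *Grhl1*, *Hoxc13*, *Lef1* and *Foxn1*, are transcription factors known from desmosomal gene control or hair differentiation. All 4 were higher than in the IFE in the inner root sheath (0.87, 1.70, 2.25 and 1.60) and in the hair shaft region (1.21, 2.16, 1.28 and 2.71). Over all 16 related genes the called numbers, higher and lower, were 2 and 6 in the upper HF (19.1% of all genes tested were called in either direction), 2 and 10 in the outer root sheath (27.1%), 7 and 5 in the inner root sheath (47.9%), 5 and 9 in the matrix (62.7%) and 8 and 2 in the hair shaft region (44.4%) against the IFE, and 13 and 2 in hair shaft against matrix (53.7%).

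The genes most like each member were taken from 8761 genes by Pearson correlation of log2 levels over the 56 sums of a slice and region, which share libraries, so r is a description. *Dsc2* went with the hair keratin-associated genes *Krtap14* (r = 0.95) and *Krtap15* (0.95) and with *Sprr2h* (0.95). *Dsg3* went with *Afdn* (0.94), which encodes the junction protein afadin, *Lbh* (0.93) and *Gpc4* (0.93), and *Dsc3* with *Cd109* (0.95), *Crip2* (0.93) and *Lgals7* (0.92). For *Dsg1a* they included *Tubb4b* (0.84) and *Ly6d* (0.83), and for *Dsc1* *Prss53* (0.81), *Pnpla1* (0.81) and *Fam83c* (0.80). The highest r was lower for *Dsg1b* (*Zfp598*, 0.66), *Dsg2* (*Gtf3c5*, 0.64), *Dsg1c* (*Hspb8*, 0.53) and *Dsg4* (*Maml3*, 0.50). The part of low counts in these values was not tested.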

How the data were processed

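Spatial RNA was measured with Visium slides in 4 slices. The deposited files hold raw UMI counts per gene and spot over tissue, which the authors made with Space Ranger 2.0.1 (matrix header) on mm10 (the submitters' processing notes), and slices were not pooled. The counting annotation is not given in the sources used here. The study set aside 1 distorted section. Its spots could not be told from the labels, so all 4 slices were used and may include them. Coordinates are from GENCODE M21 (GRCm38).

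Members, gene lists and tests were chosen with earlier results of these data known. Spots with at least 250 genes were clustered into 16 groups with Seurat 5.3.0 in R 4.3.3 (2000 variable genes, 30 principal components, 20 neighbours), without the members and related genes, and named from marker lists. Regions needed 20 spots in a slice. Counts summed per slice and region were tested with the edgeR 4.0.16 quasi-likelihood test (TMM, filterByExpr, all regions in 1 fit, Benjamini-Hochberg adjustment over 13177 genes, threshold 0.05), and DESeq2 1.42.0 was an alternative. Levels are CPM, UMIs scaled to the total of a region and slice. Ratios are log2 of summed UMIs with 1 UMI added to each sum, and ratios, mean steps and gradients were tested with exact permutation tests over slices in scipy 1.17.1. For shares of spots each spot was thinned to 5500 UMIs, leaving out 563 shallower spots. On simulated counts for hair shaft against IFE, the edgeR step recovered 51.5% of 200 genes changed by 1 on the log2 scale among 12249 genes, with 1.905% false calls. The simulated regions shared 1 mean profile apart from these 200 genes. Between the real regions 44.4% of genes were called, so the simulated rates need not hold for them.

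Regions with the same slice number come from the same slice, which pairs them. Their deviations from the region means had mean correlations of 0.133, 0.072, 0.046 and 0.08 over 15 pairs of regions each. Named genes were all 9 members, the 16 related genes, and for each member the 3 other genes of highest correlation among those with a mean of at least 10 CPM. For *Dsg1a*, 1 of these 3 genes is not reported here. Alternatives covered clustering (12 or 20 clusters, integrated slices, marker scores without clusters), depth, scaling, filters, the slice as a block, single slices left out and 3 strips per slice.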

Additional observations from a re-analysis of the deposited data

Results flagged for a closer look

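Of 86 groups of 4 slices looked at, 1 held a slice far from the others. The log2 ratio of *Dsg2* to *Dsg3* in the upper HF region was −2.81 in slice 2 and between −3.43 and −3.33 in the other slices, a gap of 0.835 of the whole range. Chance alone flags about 1 in 20 such groups.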

How the results depend on the processing

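Of 27 called log2 differences of single members in the comparisons with IFE and of hair shaft with matrix, 383 of 433 values under alternatives kept direction and call, 47 lost the call and 3 turned. Of the 15 differences not called, 31 values under alternatives were called, among them *Dsc2* in inner root sheath against IFE (1.49, without clusters) and *Dsg1b* in matrix against IFE (−1.92) and hair shaft against matrix (2.03) with 20 clusters. The 3 were *Dsc1* with 12 clusters, in the outer root sheath (0.0065) and the matrix (0.18) against IFE, and *Dsg1a* in hair shaft against matrix (−0.022) with library size alone. Called members numbered 3 (without slice 2) to 6 for outer root sheath against IFE and 3 (without slice 2) to 5 for upper HF against muscle when single slices were left out. Within strips they numbered 3 for outer root sheath against IFE (strips 2 and 3), hair shaft against IFE (strip 3), outer root sheath against muscle (strip 3) and inner root sheath against muscle (strip 2), and 2 (strip 1) and 3 (strip 3) for upper HF against muscle. They were 5 for IFE against muscle after integration of slices and 3 for outer root sheath against muscle with 20 clusters. With the slice as a block, called members numbered 6, 5 and 6 in the outer root sheath, inner root sheath and matrix against IFE, and no other count of called members changed. The share of all genes called under these alternatives is not given beside the counts, so their changes are not a result about the members.

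The 25 called ratios became 0 with 12 clusters, with spots of at least 1000 genes, with *Dsg1b* alone as *Dsg1*, within strips 1, 2 and 3, when single slices were left out (0 to 0) and with the slice as a block, and the 6 called mean steps became 0 in the last 2 settings. With 3 slices (smallest p 0.1) or the block (0.125) no call can pass, so those settings say nothing about stability. The called ratios shared the same adjusted p, so in each setting they could be lost together. Of the 19 called ratios without *Dsg4*, 19 kept their direction within each strip, with *Dsg1b* alone, with each slice left out and with the block, 15 of the 15 with a value did so with at least 1000 genes and 6 of 7 with 12 clusters. Ratios that turned were *Dsg1*/*Dsg3* in inner root sheath against IFE without clusters (−0.029), *Dsc1*/*Dsc3* in outer root sheath against IFE with 12 clusters (0.14), and *Dsg4*/*Dsg1* in outer root sheath (−0.39, *Dsg1b* alone), inner root sheath (−0.53, 5 UMIs added) and matrix (1.75 with 20 clusters, 1.47 thinned) against IFE and in hair shaft against matrix (−0.29, 20 clusters). Over steps 0 to 5, *Dsg1* minus *Dsg3* was −0.58 and *Dsc1* minus *Dsc2* was −0.45. Along the shaft gradient *Dsc2*/*Dsc3* passed with 20 clusters (5.16), without clusters (4.81), with at least 1000 genes (5.36) and thinned (4.00), and *Dsg4*/*Dsg1* passed without clusters (1.12). The cause of these changes was not tested.

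Library size alone moved the median of all genes in hair shaft from −0.05 to −0.34 against IFE, from −0.19 to −0.46 against matrix and from −0.13 to −0.36 against muscle, and in outer root sheath against muscle from 0.00 to 0.13. Genes called higher and lower went from 2769 and 3080 to 1779 and 4394, from 3095 and 3981 to 2377 and 5438, from 3159 and 3461 to 2341 and 4780, and from 3163 and 3240 to 3845 and 2480. DESeq2 moved inner root sheath against IFE from 3088 and 3225 to 2327 and 3732, inner root sheath against muscle from 3303 and 3049 to 2376 and 3579, and matrix against muscle from 3937 and 3581 to 2862 and 4009.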
